A study of Mus musculus with 27 samples.

Results

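The cornified envelope genes examined here were every gene whose symbol starts with Sprr or Lce followed by a digit, together with Lor, Crnn, Ivl, Flg, Flg2, Hrnr, Rptn, Tchh, Sbsn, Krtdap, Tgm1, Tgm3, Cnfn, Evpl and Ppl. The names were picked from what the encoded proteins do, and 2 symbols ending in -ps were left aside. This gave 51 of the 50559 genes in the expression table, made up of 15 Sprr genes, 21 Lce genes and 15 single genes. At least 10 counts over the 27 libraries were needed for testing, which 50 of the 51 reached. Sprr4 had no count in any library. On average, 30 of the 51 lay at 10 or more CPM (counts per 1000000 of the library).

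Thyroid gland cells of C57BL/6 mice, 8-12 weeks old, were grown as organoids in Matrigel in DMEM/F12 with EGF, FGF2, Y27632 and B27. Photons were given at day 5 at 2, 4 or 7 Gy, and RNA was taken at day 5 (0 Gy only), day 7 and day 11, giving 9 groups of 3 libraries. The libraries were Smart3SEQ libraries of polyadenylated RNA, which read the 3' ends of transcripts. Summed counts ran from 2528866 to 5723150 per library (median 3758142). Every per-library triplet below is in CPM and is ordered by the culture names mTG11, mTG12 and mTG14.

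The cornified envelope is the cross-linked protein shell that stratified squamous epithelia, among them epidermis, oesophagus and forestomach, build beneath the plasma membrane of their outermost cells. Plakins lay down its scaffold, transglutaminases join precursors to that scaffold, and loricrin, small proline-rich and late cornified envelope proteins thicken it. Most of these genes lie side by side in the epidermal differentiation complex, on mouse chromosome 3. The follicular epithelium of the thyroid is a single layer of cells and does not cornify.

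Markers of the labelled tissue were present at low levels. The 13 thyroid follicular markers summed to 40.7-321 CPM per library, with Duoxa2 as the top gene, and Slc5a5 and Iyd were among those that stayed under 10 counts over all 27 libraries. Markers of basal squamous epithelium summed to 4941-16993 CPM per library, with Krt5 on top, and those of suprabasal mucosal epithelium to 5229-19340 CPM, with Krt13 on top. Suprabasal epidermal markers came to 6.84-54.5 CPM, Krt10 being the top gene and Krt2 staying under 10 counts. Skeletal muscle markers summed to 9.52-488 CPM per library (top gene Mylpf), fibroblast markers to 50.2-192 CPM (top gene Fbln1) and secretory mucosal markers to 57.0-511 CPM (top gene Scgb3a1). C cell markers came to 2.76-91.2 CPM (top gene Calcb) and multiciliated markers to 4.30-69.5 CPM (top gene Foxj1). Immune markers summed to 4.14-59.3 CPM per library (top gene Cd68), endothelial markers to 0.0570-1.504 CPM (top gene Pecam1) and parathyroid markers to at most 4.56 CPM (top gene Pth). Single genes of these lists, Gcm2 (parathyroid), Emcn (endothelium) and Cd3e (T cells), had no count at all.

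The members together held 2.02 ± 0.115% of all counts at day 5 (mean ± SD, n = 3), 3.26 ± 0.314% at day 7 and 1.79 ± 0.0673% at day 11 without irradiation. Most of this came from Sprr2a1, Sprr2a2 and Sprr2a3, 3 near-identical genes that held 2.48% of the counts of the whole table. Sprr2a1 to Sprr2a3 held 1.29 ± 0.0782% at day 5, 2.84 ± 0.212% at day 7 and 1.61 ± 0.0673% at day 11 (n = 3 each). Without them, the other 48 genes held 0.737 ± 0.0787%, 0.419 ± 0.104% and 0.175 ± 0.0143% at the same days (n = 3 each). With 7 Gy, Sprr2a1 to Sprr2a3 held 4.02 ± 0.295% at day 7 and 2.22 ± 0.319% at day 11, and the other 48 genes 0.337 ± 0.0944% and 0.289 ± 0.0633% (n = 3 each).

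**Figure D1:**
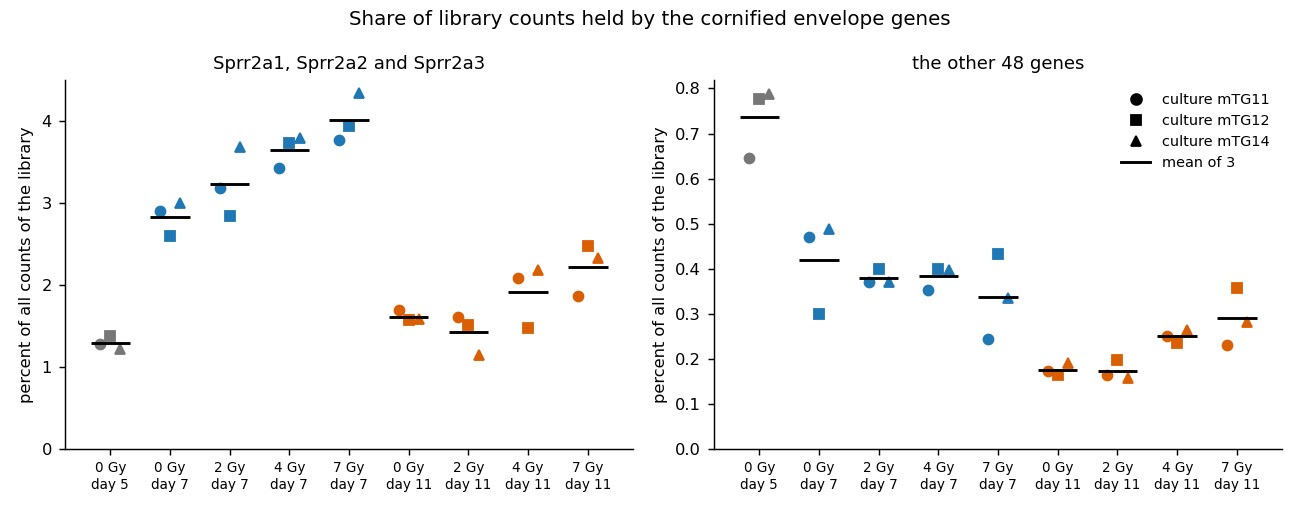
Percent of each library's counts held by Sprr2a1 to Sprr2a3 (one panel) and by the other 48 cornified envelope genes (the other panel) in the 9 groups, with points for libraries marked by culture and lines for the mean of 3. The Sprr2a genes went from 1.29% at day 5 to 2.84% at day 7 without irradiation and stood at 4.02% at day 7 after 7 Gy, while the other genes went from 0.737% at day 5 to 0.175% at day 11.

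Between day 5 and day 7 without irradiation, the members moved in both directions. Krtdap, Sbsn, Sprr1a, Sprr1b, Lce3d and 6 Lce1 genes fell, whereas Ivl, Crnn, Evpl, Sprr2b, Sprr2d and Sprr2a1 to Sprr2a3 rose. At an edgeR adjusted p under 0.05, 19 of 50 members were called, 8 higher and 11 lower, where 17.7% of all 22220 tested genes were called (9.48% higher and 8.19% lower). The median log2 fold change of the 30 members at 10 CPM or more was 0.17, beside 0.00 for all genes. Of all called genes 53.7% were higher, a share that became 34.5% when libraries were scaled without TMM factors, and the members' median then became 0.02. The near-identical Sprr2a1 to Sprr2a3 were counted as separate members here and below. With them left out of the table, 17 of 47 members were called, 5 higher and 12 lower, beside 3968 genes.

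Between day 7 and day 11, every member called by edgeR fell. They were 36 of 50, where 17.7% of all genes were called (9.65% lower), and among them were Krtdap, Cnfn, Rptn, Lor, Ivl, Tgm1, Tgm3, Sprr1a, Sprr1b, Sprr3, Sprr2a1 to Sprr2a3 and the Lce3 genes. The members' median was -1.84, with 4 of 30 above 0, beside an all-gene median of 0.00. With Sprr2a1 to Sprr2a3 left out of the table, 34 of 47 members were called, 33 lower and 1 higher, beside 3969 genes. Tchh was higher but not called (0.75, edgeR adjusted p 0.0589), and it was called with culture as a block (adjusted p 0.0459), with DESeq2 (0.77), with filterByExpr (0.78), and without the day 7 library mTG11 (1.02, adjusted p 0.0239) or the day 11 library mTG12 (0.88, adjusted p 0.045).

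Over the whole span from day 5 to day 11, 42 of 50 members were called, 34 lower and 8 higher, where 34.7% of all genes were called (17.7% higher and 17.0% lower). The 8 that rose were Ppl, Evpl, Tchh, Crnn, Sprr2d and Sprr2a1 to Sprr2a3. The members' median was -1.59, beside 0.05 for all genes. Without TMM factors the share of called genes that were higher was 40.1% in place of 51.1%, the all-gene median was -0.05 and the members' median -1.73. Of the 8 that rose, 4 were then called, with Ppl and Sprr2a1 to Sprr2a3 no longer among them. With TMM factors but with Sprr2a1 to Sprr2a3 left out of the table, 39 of 47 members were called, 5 higher and 34 lower, beside 7711 genes. Each of the 3 day comparisons shares a group with the other 2, so their results are not separate pieces of evidence. Taking all groups at once, 48 of 50 members differed among the 9 groups, all but Flg2 and Lce1m, where 40.1% of all genes did.

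At day 7, the members called after irradiation were mostly lower, and they grew in number with dose. With 2 Gy edgeR called 0 of 50 members, where 0.149% of all genes were called (33). At an unadjusted p under 0.05 there were 15 members and 1709 genes, and DESeq2 also called 0 members (52 genes). Crnn was the member called when culture was added as a block, beside 104 genes.

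With 4 Gy at day 7, edgeR called Krtdap, Flg and Lce3d, all lower, 3 of 50 members where 1.55% of all genes were called. This count moved with single libraries. It became 0 without the 0 Gy library mTG11 or mTG14 or the 4 Gy library mTG12, 1 without the 4 Gy library mTG11, and 8 without the 0 Gy library mTG12. Genes called in these fits were 182, 191, 144, 171 and 261 in that order, in place of 344. With culture as a block 9 members and 931 genes were called in place of 3 and 344, and DESeq2 called 5.

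With 7 Gy at day 7, Krtdap, Rptn, Flg, Crnn, Lor, 5 Lce3 genes and 5 Lce1 genes were lower, while Ivl and Sprr2a1 to Sprr2a3 were higher. These were 19 of 50 members (15 lower and 4 higher), where 6.80% of all genes were called (3.31% higher and 3.49% lower). The members' median was -0.22, with 11 of 30 above 0. Without the 0 Gy library mTG11, 10 members and 1052 genes were called, in place of 19 and 1510. The near-identical Sprr2a1 to Sprr2a3 were counted as separate members. With them left out of the table, 16 of 47 members were called, 1 higher and 15 lower, beside 1498 genes. The doses at day 7 share the same 3 unirradiated libraries, and the members' medians at 2, 4 and 7 Gy were -0.05, -0.07 and -0.22.

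At day 11, edgeR called 0 of 50 members with 2 Gy, where 0% of all genes were called. At an unadjusted p under 0.05 there were 0 members and 1210 genes, and DESeq2 called 0 members (1 gene). With 4 Gy it called 0 of 50 members, where 0.0540% of all genes (12) were called, with 12 members and 1669 genes at an unadjusted p under 0.05. DESeq2 called 1 member and 52 genes there, and culture as a block gave Cnfn and Sprr3 beside 193 genes.

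With 7 Gy at day 11, the called members were all higher. Krtdap, Cnfn, Rptn, Lce3f, Lce3e, Lce3c, Lce3a, Sprr3, Sprr1b and Sprr2g passed the test, 10 of 50 members where 2.55% of all genes were called (1.88% higher). The members' median was 1.04, with 27 of 30 above 0, beside 0.04 for all genes. At 2 and 4 Gy the medians against the same 3 controls were 0.02 and 0.72. The count moved with single libraries: it became 2 without the 0 Gy library mTG11 or mTG14 or the 7 Gy library mTG12, and 3 without the 0 Gy library mTG12. Genes called in these fits were 331, 301, 338 and 316 in that order, in place of 567. With culture as a block 17 members and 1236 genes were called. With day 11 fitted by itself, fewer members reached the count limit, and 5 of 34 tested members and 302 of 19901 genes were called.

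The difference between the 7 Gy responses at the 2 days was also tested. It was called for 13 of 50 members, all with the more positive response at day 11, where 3.23% of all genes were called (2.45% more positive). They were Krtdap, Cnfn, Rptn, Flg, Lor, Sprr1a, Lce1a1 and the 6 Lce3 genes. Without the 7 Gy day 11 library mTG12, 5 members and 540 genes were called, in place of 13 and 718. With culture as a block 20 members and 1153 genes were called.

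**Figure D2:**
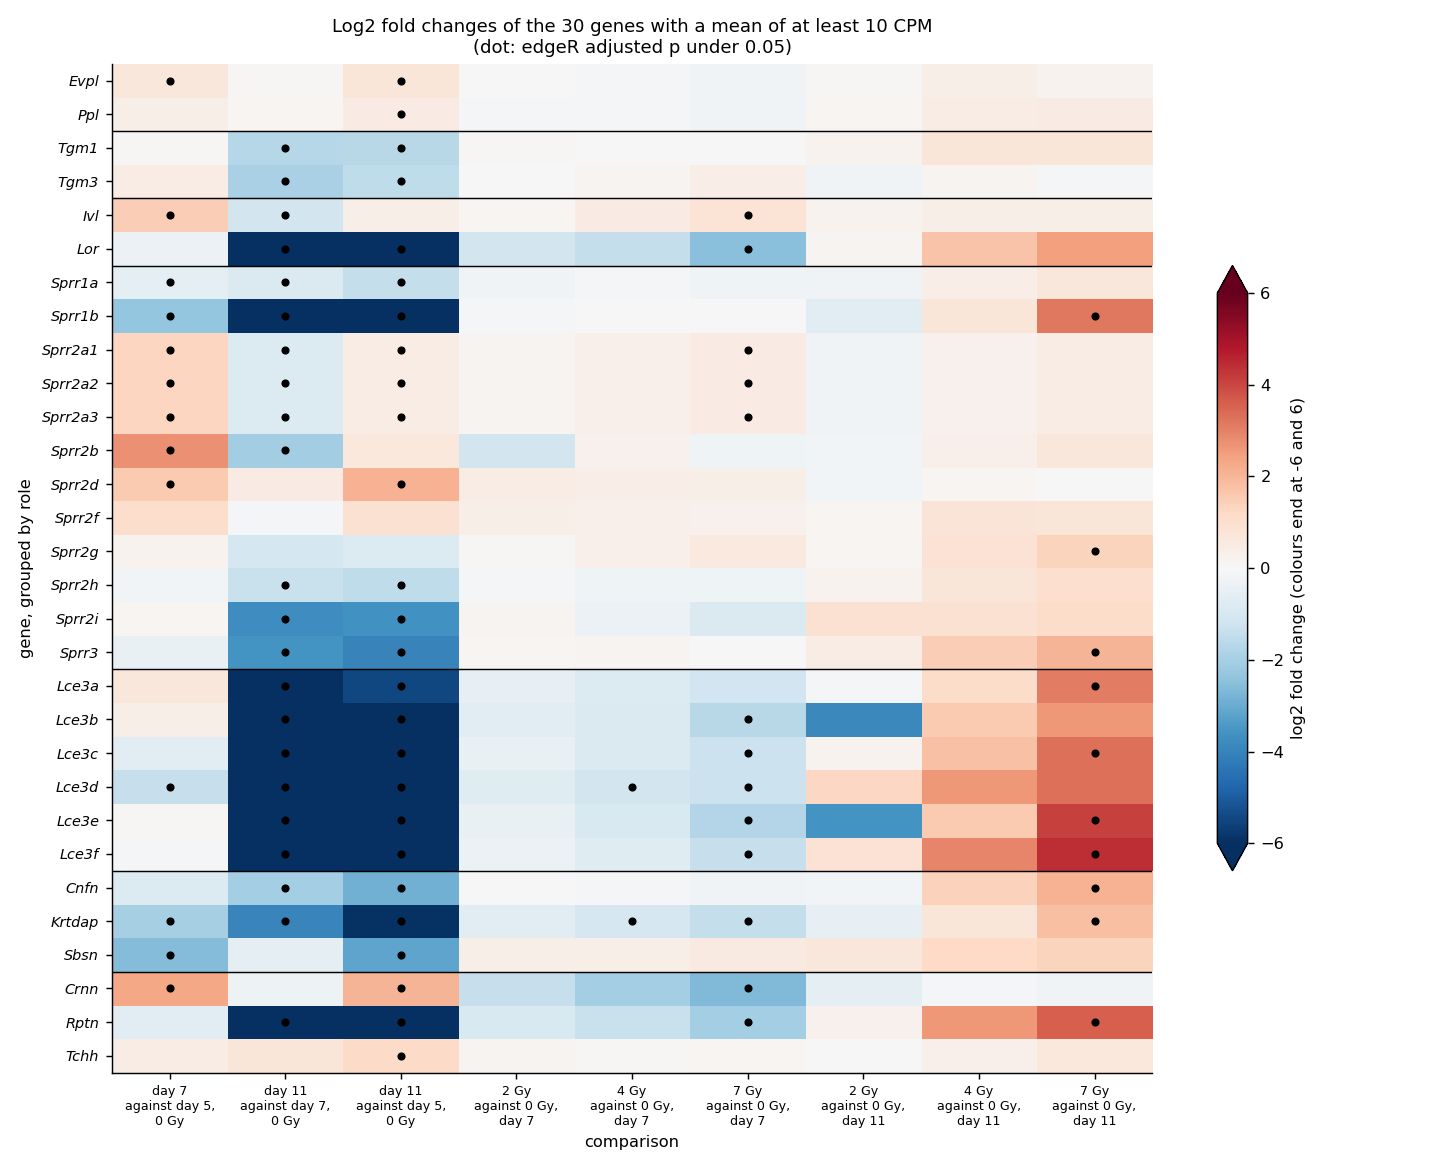
Heat map of log2 fold changes of the 30 cornified envelope genes at 10 CPM or more, grouped by role, in 9 comparisons, with a dot where the edgeR adjusted p was under 0.05 and colours ending at 6 in either direction. Krtdap fell by 5.94 on the log2 scale from day 5 to day 11 while Evpl rose by 0.72, and with 7 Gy Krtdap was at -1.43 at day 7 and 1.82 at day 11.

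The plakins Ppl and Evpl, which link the envelope scaffold to the membrane and to keratin filaments, changed little. Evpl was at 131, 135 and 168 CPM at day 5, at 221, 156 and 248 at day 7 and at 201, 199 and 252 at day 11. Only mTG12 at day 7 (156) lay within the day 5 range. Evpl rose from day 5 to day 7 (log2 fold change 0.66, SE 0.16, edgeR adjusted p 0.00402) and was still higher at day 11 than at day 5 (0.72, SE 0.16, adjusted p 0.00074). Ppl was at 144, 165 and 148 CPM at day 5 and at 164, 191 and 234 at day 11. These ranges touched at 164 and 165, and the day 11 difference from day 5 (0.50, edgeR adjusted p 0.0134) was not called without the day 11 library mTG14 (0.34, adjusted p 0.127), nor without TMM factors (0.36). Neither gene was called with any dose. Ppl was called with 7 Gy at day 11 once culture was a block (0.48, adjusted p 0.0995 without and 0.0127 with the block).

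Tgm1 and Tgm3, the membrane-bound and the soluble transglutaminase that cross-link envelope precursors, kept their level to day 7 and then fell. Tgm1 was at 124, 194 and 169 CPM at day 5, at 134, 135 and 189 at day 7 and at 33.3, 67.3 and 41.0 at day 11. Tgm3 was at 77.2, 89.0 and 122 CPM at day 5, at 100.0, 102 and 152 at day 7 and at 15.95, 29.5 and 45.9 at day 11. No day 11 library of either gene reached the lowest library of an earlier day. From day 7 to day 11 Tgm1 fell by 1.71 on the log2 scale (SE 0.38, edgeR adjusted p 0.0021) and Tgm3 by 1.96 (SE 0.43, edgeR adjusted p 0.00185). Against day 5, Tgm1 was at -1.65 at day 11 (edgeR adjusted p 0.00131) and Tgm3 at -1.54 (edgeR adjusted p 0.0074), the latter not called without the day 11 library mTG11 (-1.21, adjusted p 0.0554). Neither gene was called with any dose, and at 7 Gy on day 7 they stood at 0.03 and 0.39. In bulk RNA, fewer cells of a type and less RNA per cell cannot be told apart, which holds for each change described here.

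Of the other transglutaminase genes, 3 of 6 had enough counts to test. Tgm2 rose from day 5 to day 7 (3.45) and from day 7 to day 11 (1.94), the latter being the step in which Tgm1 and Tgm3 fell, and was at 5.39 from day 5 to day 11 (edgeR adjusted p 3.38e-09 for the whole span). Tgm5 fell from day 7 to day 11 (-1.18, edgeR adjusted p 0.00492). At day 7 it was lower with 4 Gy (-1.09, edgeR adjusted p 0.0481), which was not called without the 0 Gy library mTG11 (adjusted p 0.212) or mTG14 (adjusted p 0.128) or the 4 Gy library mTG11 (adjusted p 0.169) or mTG12 (adjusted p 0.278). With 7 Gy it was also lower (-0.93, edgeR adjusted p 0.0471), a call lost without the 0 Gy library mTG11 (adjusted p 0.202) or mTG14 (adjusted p 0.116) or the 7 Gy library mTG11 (adjusted p 0.124) or mTG12 (adjusted p 0.199).

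Loricrin and involucrin, core precursors of the shell, differed at day 7 and were both lower at day 11 than at day 7. Lor was at 109, 84.8 and 156 CPM at day 5, at 122, 40.8 and 92.1 at day 7 and at 0.952, 1.88 and 0.275 at day 11. The day 5 and day 7 values overlapped, and every day 11 value was far below both. From day 7 to day 11 Lor fell by 6.31 on the log2 scale (SE 0.66, edgeR adjusted p 1.04e-07), after no called change from day 5 to day 7 (-0.33, edgeR adjusted p 0.618). Irradiation at day 7 left Lor at 54.2, 39.0 and 29.2 CPM with 2 Gy, at 24.1, 28.7 and 42.8 with 4 Gy and at 7.77, 17.2 and 20.0 with 7 Gy. At 7 Gy no value reached the lowest unirradiated one (40.8), and the fall was 2.51 on the log2 scale (SE 0.44, edgeR adjusted p 0.000655). At 4 Gy the change of -1.45 had an edgeR adjusted p of 0.068, and of 0.0141 with culture as a block. After 7 Gy at day 11 Lor was at 1.75, 12.2 and 3.28 CPM, and the 7 Gy response differed between the days by 4.99 (edgeR adjusted p 0.00239), or 3.67 (adjusted p 0.0888) without the 7 Gy day 11 library mTG12.

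Ivl was at 19.3, 23.6 and 17.7 CPM at day 5, at 60.4, 49.6 and 42.7 at day 7 and at 22.4, 30.3 and 18.4 at day 11. All day 7 values lay above those of the other 2 days. Ivl rose from day 5 to day 7 (1.48, SE 0.19, edgeR adjusted p 6.43e-06) and fell from day 7 to day 11 (-1.10, SE 0.18, edgeR adjusted p 8.35e-05). At day 7 it was at 56.9, 56.0 and 56.6 CPM with 2 Gy, at 89.5, 67.9 and 62.5 with 4 Gy and at 107, 81.2 and 81.7 with 7 Gy. With 7 Gy each library was above every unirradiated one, a rise of 0.82 (SE 0.17, edgeR adjusted p 0.00272), and with 4 Gy the change of 0.48 was not called (edgeR adjusted p 0.176). At day 11 Ivl was at 24.8, 39.8 and 25.7 CPM with 7 Gy, overlapping the controls.

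The small proline-rich proteins bridge other envelope proteins, and the Sprr genes did not move together. Sprr2a1 was at 4809, 5193 and 4619.9 CPM at day 5, at 10973, 9807 and 11347 at day 7 and at 6393, 5896 and 5981 at day 11. With 7 Gy it was at 14333, 14989.8 and 16349 CPM at day 7 and at 7026, 9338 and 8842 at day 11. In each of these pairs of groups the values did not overlap. Sprr2a1 rose from day 5 to day 7 (1.27, SE 0.14, edgeR adjusted p 4.64e-07), fell to day 11 (-0.82, SE 0.14, edgeR adjusted p 8.62e-05) and was higher with 7 Gy at day 7 (0.50, SE 0.14, edgeR adjusted p 0.0223). The 7 Gy call was lost without the 0 Gy library mTG11 (0.51, adjusted p 0.0631) or mTG12 (0.44, adjusted p 0.104), or the 7 Gy library mTG14 (0.44, adjusted p 0.0951). With 7 Gy at day 11 the change of 0.46 had an edgeR adjusted p of 0.0713, and of 0.0272 with culture as a block. Against day 5, Sprr2a1 was higher at day 11 (0.46, edgeR adjusted p 0.01), a call lost without TMM factors (0.32). Sprr2a2 and Sprr2a3 are described through Sprr2a1, because all 75-base words in the last 300 bases of Sprr2a1 and Sprr2a2 are shared with other transcripts, as are 58.6% of those of Sprr2a3.

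Sprr2d was at 14.8, 70.3 and 24.5 CPM at day 5, at 69.6, 106 and 116 at day 7 and at 94.8, 191 and 127 at day 11. The mTG12 library at day 5 (70.3) overlapped day 7 but not day 11. Sprr2d rose from day 5 to day 7 (1.58, SE 0.38, edgeR adjusted p 0.00414) and was higher at day 11 than at day 5 (2.08, SE 0.38, edgeR adjusted p 9.52e-05). Without the day 5 library mTG12 the rise to day 7 was 2.41 (edgeR adjusted p 0.000127). Sprr2b was at 8.01, 8.49 and 10.5 CPM at day 5 and at 18.5, 16.4 and 125 at day 7. Its rise (2.72, edgeR adjusted p 0.00834) was not called without the day 7 library mTG14 (1.07, adjusted p 0.309). Sprr2f, at 29.6, 176 and 50.7 CPM at day 5 and 131, 143 and 196 at day 7, was not called (1.04, edgeR adjusted p 0.059) but was without the day 5 library mTG12 (2.07, adjusted p 8.03e-05) and with culture as a block (adjusted p 0.036). Sprr2k and Sprr2i fell after day 7. Sprr2k went from 12.5, 9.01 and 10.0 CPM at day 7 to 0 in all 3 libraries at day 11, at least 40.6-fold lower. Sprr2i fell from 27.4, 20.1 and 36.5 CPM to 1.67, 1.61 and 3.02 (-3.74, edgeR).

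Sprr1a, Sprr1b and Sprr3 fell with time. Sprr1b was at 571, 795 and 759 CPM at day 5, at 146, 121 and 124 at day 7 and at 1.43, 1.07 and 2.75 at day 11. The 3 days did not overlap. Sprr1b fell by 2.30 on the log2 scale from day 5 to day 7 (SE 0.44, edgeR adjusted p 0.000557) and by 6.21 from day 7 to day 11 (SE 0.72, edgeR adjusted p 4.71e-07). Sprr3 was at 451, 766 and 695 CPM at day 5, at 457, 302 and 499 at day 7 and at 18.1, 39.1 and 49.8 at day 11. Days 5 and 7 overlapped and day 11 lay apart, with a fall of 3.57 from day 7 (SE 0.52, edgeR adjusted p 1.67e-05). Sprr1a was at 1767, 2064 and 1897 CPM at day 5, at 1446, 733 and 1313 at day 7 and at 727, 529 and 669.8 at day 11. All Sprr1a values at day 11 lay below those at day 7 (-0.86, SE 0.19, edgeR adjusted p 0.00168). From day 5 to day 7 the Sprr1a call (-0.58, edgeR adjusted p 0.0309) was lost without any day 5 library (adjusted p 0.0608 without mTG11, 0.0872 without mTG12, 0.0634 without mTG14) and without the day 7 library mTG12 (-0.33, adjusted p 0.207).

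At day 7 none of these 3 was called with 7 Gy, where Sprr1b was at -0.02, Sprr3 at 0.00 and Sprr1a at -0.27. At day 11 with 7 Gy, Sprr3 was at 62.6, 247 and 124 CPM and Sprr1b at 4.89, 35.8 and 5.46, every value above all controls. Sprr3 was higher by 2.02 (SE 0.51, edgeR adjusted p 0.0301) and Sprr1b by 3.17 (SE 0.85, edgeR adjusted p 0.0436). Without the 7 Gy library mTG12 these were 1.36 (adjusted p 0.257) and 1.54 (adjusted p 0.513). Leaving out the 0 Gy libraries mTG11, mTG12 and mTG14 in turn also removed both calls (Sprr3 adjusted p 0.164, 0.0924 and 0.0539; Sprr1b 0.162, 0.153 and 0.0983), and without the 7 Gy library mTG14 Sprr3 was at an adjusted p of 0.054. Sprr2g, at 9.29, 10.5 and 13.5 CPM in controls and 17.6, 39.9 and 27.3 with 7 Gy, was higher by 1.35 (SE 0.36, edgeR adjusted p 0.0449), without any overlap. This call too was lost without the 7 Gy library mTG12 (0.98, adjusted p 0.288) or mTG14 (1.36, adjusted p 0.0882), or the 0 Gy library mTG11 (1.23, adjusted p 0.183), mTG12 (1.30, adjusted p 0.142) or mTG14 (1.51, adjusted p 0.0823). With 4 Gy at day 11 Sprr3 was at 67.8, 149.8 and 77.3 CPM, and its change of 1.47 was called with culture as a block (adjusted p 0.0475) but not without (edgeR adjusted p 0.449).

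**Figure D3:**
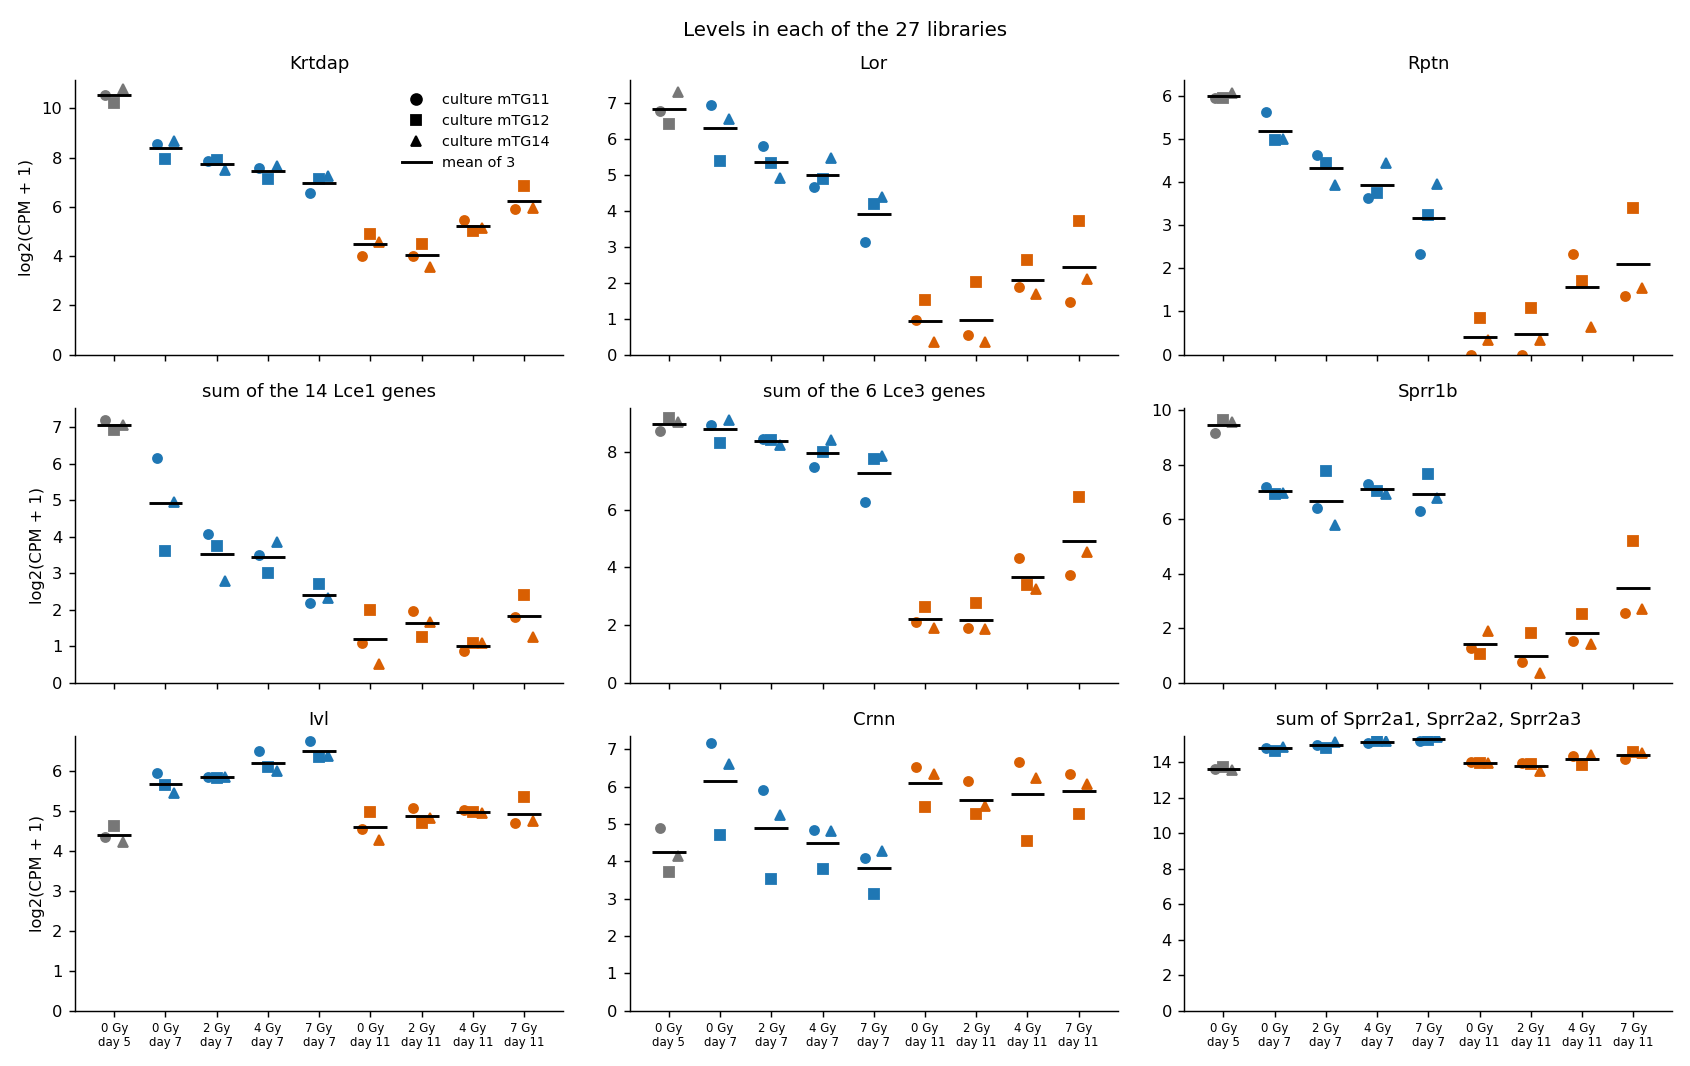
Levels of Krtdap, Lor, Rptn, the sum of 14 Lce1 genes, the sum of 6 Lce3 genes, Sprr1b, Ivl, Crnn and the sum of Sprr2a1 to Sprr2a3 as log2 of CPM plus 1 in the 9 groups, with a marker shape for each culture, a line for the mean of 3 libraries and colour for day. Krtdap ran from 1488, 1205 and 1789 CPM at day 5 to 15.0, 29.0 and 22.8 at day 11, and Crnn from 29.0, 12.2 and 16.5 to 91.1, 42.6 and 80.3.

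The late cornified envelope proteins reinforce the shell from within at the end of differentiation, and the sums of both Lce1 and Lce3 genes were lowest at day 11. The 14 Lce1 genes summed to 145, 121 and 133 CPM at day 5, to 70.1, 11.2 and 30.1 at day 7 and to 1.11, 2.99 and 0.432 at day 11. No value of a later day reached the lowest of an earlier one. The Lce1 sum fell by 1.72 on the log2 scale from day 5 to day 7 (SE 0.35, edgeR adjusted p 0.000982) and further from day 7 to day 11 (-4.55, SE 0.56, edgeR adjusted p 1.36e-06). The 6 Lce3 genes summed to 422, 578 and 524 CPM at day 5, to 495, 321 and 548 at day 7 and to 3.33, 5.10 and 2.75 at day 11. Their sum had no called change from day 5 to day 7 (-0.02, edgeR adjusted p 1) and fell by 6.93 from day 7 to day 11 (SE 0.61, edgeR adjusted p 9.43e-09).

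Lce1d was at 28.7, 28.5 and 25.7 CPM at day 5 and at 14.9, 1.59 and 3.86 at day 7, without overlap (-1.89, edgeR adjusted p 0.00635). Without the day 7 library mTG11 this change was -3.17 (edgeR adjusted p 0.000132). Lce1a1 went from 17.8, 15.6 and 16.6 CPM at day 5 to 0 counts in the unirradiated day 11 libraries, at least 64.2-fold lower. Lce1a2 likewise ended at 0 counts, at least 76.4-fold below day 5. Lce3f was at 84.9, 114 and 118 CPM at day 5, at 98.9, 58.5 and 119 at day 7 and at 0.238, 0.314 and 0.275 at day 11, far below day 7 (-8.31, SE 0.77, edgeR adjusted p 2.23e-08). The Lce3f level at day 11 was about that of 3 counts over the group (0.259 CPM), so the size of this fall is imprecise. Lce3d was the Lce3 gene that fell early, from 39.8, 56.8 and 46.9 CPM at day 5 to 18.8, 12.7 and 18.7 at day 7 (-1.37, SE 0.23, edgeR adjusted p 0.000123). Lce6a also had 0 counts in the unirradiated day 11 libraries.

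With irradiation the Lce1 sum at day 7 was 15.8, 12.4 and 5.84 CPM at 2 Gy, 10.2, 6.99 and 13.4 at 4 Gy and 3.51, 5.48 and 3.99 at 7 Gy. The unirradiated mTG12 library (11.2) lay within the 2 Gy and 4 Gy values and above those at 7 Gy. At 7 Gy the Lce1 sum fell by 3.10 on the log2 scale (SE 0.47, edgeR adjusted p 0.000142), and at 4 Gy by 1.91 (SE 0.41, edgeR adjusted p 0.0116). The 4 Gy call was lost without the 0 Gy library mTG11 (-1.09, adjusted p 0.191) or the 4 Gy library mTG11 (-1.93, adjusted p 0.051) or mTG12 (-1.66, adjusted p 0.113). At 2 Gy the sum was not called (-1.72, edgeR adjusted p 0.165), though it was with culture as a block (adjusted p 0.0357) and without the 0 Gy library mTG12 (-2.15, adjusted p 0.00437). Lce1a1 (-3.24, edgeR adjusted p 0.00198) was called with 7 Gy whichever library was left out, while Lce1d (-3.24, edgeR adjusted p 0.00811) was not called without the 0 Gy library mTG11 (-1.96, adjusted p 0.136) or the 7 Gy library mTG11 (-2.85, adjusted p 0.0523).

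The Lce3 sum at day 7 was 349, 345 and 304 CPM at 2 Gy, 179, 258 and 345 at 4 Gy and 75.8, 216 and 230.2 at 7 Gy. The 7 Gy values lay below every control (-1.40, SE 0.41, edgeR adjusted p 0.0399). That call was lost without the 0 Gy library mTG11 (-1.35, adjusted p 0.0952) or mTG14 (-1.22, adjusted p 0.146), or the 7 Gy library mTG11 (-1.04, adjusted p 0.199) or mTG12 (-1.56, adjusted p 0.0702). Lce3d, at 4.22, 8.96 and 7.51 CPM with 7 Gy, and Lce3b, at 8.10, 23.0 and 33.4, were called whichever library was left out (-1.29, edgeR adjusted p 0.00303, and -1.68, edgeR adjusted p 0.00604). With 4 Gy the Lce3d change of -1.09 (edgeR adjusted p 0.0247) was not called without the 0 Gy library mTG11 (adjusted p 0.105) or mTG14 (adjusted p 0.123) or the 4 Gy library mTG12 (adjusted p 0.199).

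At day 11 the Lce3 sum was 3.33, 5.10 and 2.75 CPM without irradiation, 2.69, 5.85 and 2.66 with 2 Gy, 18.9, 9.45 and 8.56 with 4 Gy and 12.4, 85.7 and 22.4 with 7 Gy. Every value at 4 and 7 Gy was above the controls. With 7 Gy the sum was higher by 3.43 (SE 0.64, edgeR adjusted p 0.003), or by 2.16 (adjusted p 0.0526) without the 7 Gy library mTG12, and at 4 Gy the 1.71 was not called (edgeR adjusted p 0.604). Among single genes Lce3a was at 0.714, 3.13 and 1.65 CPM without irradiation and at 4.54, 31.2 and 10.7 with 7 Gy (3.08, SE 0.72, edgeR adjusted p 0.0175). Without the 7 Gy library mTG12 Lce3a was at 1.94 (adjusted p 0.235), without the 0 Gy library mTG11 at 2.66 (adjusted p 0.104) and without mTG14 at 3.01 (adjusted p 0.074). The calls of Lce3f (4.43, edgeR adjusted p 0.0371), Lce3e (4.11, edgeR adjusted p 0.0409) and Lce3c (3.32, edgeR adjusted p 0.0281) were lost without any 1 of the 0 Gy libraries or the 7 Gy library mTG12, the last giving 2.83, 2.35 and 2.05. The Lce3f controls lay at about the level of 3 counts over the group (0.259 CPM), so its 4.43 is imprecise. Without the 0 Gy libraries mTG11, mTG12 and mTG14 in turn the adjusted p was 0.139, 0.121 and 0.12 for Lce3f, 0.131, 0.133 and 0.136 for Lce3e, and 0.0735, 0.102 and 0.126 for Lce3c. The Lce1 sum, at 2.45, 4.32 and 1.37 CPM with 7 Gy, was not called (0.86, edgeR adjusted p 0.693).

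Between the days the 7 Gy response of the Lce3 sum differed by 4.83 (edgeR adjusted p 0.000283) and that of the Lce1 sum by 3.96 (edgeR adjusted p 0.0128), the Lce1 value being 3.45 (adjusted p 0.106) without the 7 Gy day 11 library mTG12. Lce3d (4.59, edgeR adjusted p 0.00341) and Lce3a (4.24, edgeR adjusted p 0.00214) were called whichever library was left out. The Lce1a1 call (edgeR adjusted p 0.0312) came from 1 library, since the adjusted p was 1.00 without the 7 Gy day 11 library mTG12, and it ran from 0.0513 to 0.0735 without each of 5 others.

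The small secreted or membrane-linked proteins Krtdap, Sbsn and Cnfn, products of suprabasal keratinocytes, fell with time. Krtdap was at 1488, 1205 and 1789 CPM at day 5, at 379, 244 and 408 at day 7 and at 15.0, 29.0 and 22.8 at day 11. None of these ranges touched. Krtdap fell by 1.98 on the log2 scale from day 5 to day 7 (SE 0.25, edgeR adjusted p 4.86e-06) and by 3.96 from day 7 to day 11 (SE 0.30, edgeR adjusted p 9.58e-10). Sbsn was at 494, 593 and 571 CPM at day 5, at 104, 56.0 and 87.0 at day 7 and at 48.8, 52.6 and 65.4 at day 11. Its drop lay between day 5 and day 7 (-2.61, SE 0.46, edgeR adjusted p 0.000223), with no called change after that (-0.57, edgeR adjusted p 0.463). Cnfn went from 278, 457 and 440.2 CPM at day 5 through 216, 141 and 244 at day 7 to 36.2, 35.4 and 73.4 at day 11. Its fall from day 7 to day 11 (-2.06, SE 0.33, edgeR adjusted p 5.67e-05) had no overlap, and the change from day 5 to day 7 (-0.82, edgeR adjusted p 0.0637) was called with culture as a block (adjusted p 0.0159), without TMM factors (-0.97) and without the day 5 library mTG11 (-0.98, adjusted p 0.0487).

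Krtdap at day 7 was at 231, 242 and 178 CPM with 2 Gy, at 190.1, 139.7 and 204 with 4 Gy and at 94.0, 141 and 151 with 7 Gy. All of these lay below the lowest control (244). Krtdap fell by 1.43 on the log2 scale with 7 Gy (SE 0.26, edgeR adjusted p 0.000876) and by 0.99 with 4 Gy (SE 0.25, edgeR adjusted p 0.0418), while the 2 Gy value of -0.69 was not called (edgeR adjusted p 0.456). The 4 Gy call was lost without the 0 Gy library mTG11 (adjusted p 0.138) or mTG14 (adjusted p 0.196), or the 4 Gy library mTG11 (adjusted p 0.105) or mTG12 (adjusted p 0.245). At day 11 Krtdap was at 15.2, 21.7 and 10.9 CPM with 2 Gy, at 43.8, 31.9 and 34.0 with 4 Gy and at 59.4, 113 and 61.7 with 7 Gy. At 4 and 7 Gy every library was above the controls, and the 7 Gy rise was 1.82 (SE 0.29, edgeR adjusted p 0.000684). The 7 Gy responses of Krtdap at the 2 days differed by 3.24 (edgeR adjusted p 1.2e-05).

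Cnfn at day 11 was at 36.9, 52.1 and 43.7 CPM with 2 Gy, at 123, 95.2 and 156 with 4 Gy and at 108, 285 and 224 with 7 Gy. Values at 4 and 7 Gy lay above all controls. With 7 Gy Cnfn rose by 2.08 (SE 0.33, edgeR adjusted p 0.000642), and with 4 Gy the 1.36 was called with culture as a block (adjusted p 0.0065) and by DESeq2 but not otherwise (edgeR adjusted p 0.14). Krtdap and Cnfn were the members whose 7 Gy call at day 11 held whichever library was left out. The 7 Gy responses of Cnfn at the 2 days differed by 2.31 (edgeR adjusted p 0.00256). Sbsn was at 65.7, 250.5 and 105 CPM with 7 Gy at day 11 and was called with culture as a block (1.18, adjusted p 0.0359) but not without (1.33, edgeR adjusted p 0.139).

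The S100-fused proteins bundle keratin filaments or are built into the envelope. Rptn was at 61.0, 60.8 and 66.1 CPM at day 5, at 48.5, 30.2 and 30.9 at day 7 and at 0, 0.804 and 0.275 at day 11. All day 7 values were under those of day 5, but the change was not called (-0.65, edgeR adjusted p 0.25). From day 7 to day 11 Rptn fell (-6.59, SE 0.73, edgeR adjusted p 2.34e-07). At day 7 Rptn was at 23.7, 20.9 and 14.2 CPM with 2 Gy, at 11.4, 12.4 and 20.6 with 4 Gy and at 4.01, 8.48 and 14.6 with 7 Gy. Each irradiated library was below every control, and with 7 Gy the fall was 2.02 (SE 0.42, edgeR adjusted p 0.00368). With 4 Gy the -1.33 had an edgeR adjusted p of 0.0924, and of 0.0214 with culture as a block. After 7 Gy at day 11 Rptn was at 1.57, 9.54 and 1.91 CPM (3.59, SE 0.99, edgeR adjusted p 0.0497). That call was lost without the 7 Gy library mTG12 (2.19, adjusted p 0.423) or the 0 Gy library mTG11 (2.98, adjusted p 0.206), mTG12 (4.83, adjusted p 0.0893) or mTG14 (3.47, adjusted p 0.155), and without Sprr2a1 to Sprr2a3 in the table (3.56). The 7 Gy responses of Rptn at the 2 days differed by 5.61 (edgeR adjusted p 0.0014).

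Crnn rose where Rptn did not. It was at 29.0, 12.2 and 16.5 CPM at day 5, at 143, 25.2 and 96.2 at day 7 and at 91.1, 42.6 and 80.3 at day 11. The mTG12 library at day 7 (25.2) overlapped day 5, and day 11 did not. Crnn rose from day 5 to day 7 (2.32, SE 0.61, edgeR adjusted p 0.00795), which was not called without the day 7 library mTG11 (1.81, adjusted p 0.0596), and was higher at day 11 than at day 5 (2.02, SE 0.61, edgeR adjusted p 0.011). At day 7 Crnn was at 59.7, 10.5 and 37.1 CPM with 2 Gy, at 27.7, 12.8 and 27.2 with 4 Gy and at 16.04, 7.71 and 18.4 with 7 Gy. Every irradiated library was below the unirradiated library of its own culture, and at 7 Gy all lay below every control (-2.65, SE 0.61, edgeR adjusted p 0.0076). The 7 Gy call was lost without the 0 Gy library mTG11 (-2.14, adjusted p 0.0567) or the 7 Gy library mTG12 (-2.34, adjusted p 0.0542). With culture as a block Crnn was also called at 2 Gy (-1.40, edgeR adjusted p 0.537 without and 0.00498 with the block) and at 4 Gy (-2.02, 0.0759 and 1.64e-05). At day 11 with 7 Gy Crnn was at 80.5, 37.6 and 66.2 CPM, overlapping the controls (-0.22).

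Flg was at 12.4, 7.79 and 5.42 CPM at day 5 and at 28.0, 5.04 and 15.4 at day 7, and these overlapped. With 7 Gy at day 7 it was at 0.501, 1.03 and 0.798 CPM, below every control (-4.33, SE 0.72, edgeR adjusted p 0.000375). With 4 Gy it was at 4.66, 3.09 and 3.85 CPM, and that call (-2.10, edgeR adjusted p 0.0477) was lost without the 0 Gy library mTG11 (-1.47, adjusted p 0.299) or mTG14 (-2.11, adjusted p 0.11) and without each 4 Gy library (adjusted p 0.11 for mTG11, 0.227 for mTG12 and 0.112 for mTG14). Tchh, which hardens the inner root sheath of hair, was at 14.1, 14.8 and 11.4 CPM at day 5 and at 26.4, 22.5 and 33.3 at day 11, without overlap (1.17, SE 0.29, edgeR adjusted p 0.00226). Hrnr was at 3.10, 1.14 and 3.14 CPM at day 5 and at 0 counts in day 11 controls, at least 9.48-fold lower. Flg2 never exceeded 6 counts in a group.

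Genes that act with the envelope were followed in the same comparisons, with all changes given on the log2 scale. For comparison, the shares of all tested genes called by edgeR were 9.48% higher and 8.19% lower from day 5 to day 7, 9.65% lower from day 7 to day 11, 17.7% higher and 17.0% lower from day 5 to day 11, 3.31% higher and 3.49% lower with 7 Gy at day 7, and 1.88% higher with 7 Gy at day 11. As counts, 1779 of the 22220 genes were higher from day 7 to day 11, and 150 were lower with 7 Gy at day 11. Whether a list had more called genes than these shares or counts give was not tested. Of 24 transcription factors linked to squamous differentiation, 8 were higher and 3 lower from day 5 to day 7 (median 0.13, beside 0.00 for all genes), 5 and 5 from day 7 to day 11 (-0.02, beside 0.00), and 0 and 4 with 7 Gy at day 7 (-0.15, beside 0). Hopx rose throughout, by 0.97 from day 5 to day 7 (edgeR adjusted p 0.00442) and by 1.35 from day 7 to day 11 (edgeR adjusted p 0.000101). Elf3 rose by 1.91 from day 5 to day 11 (edgeR). With 7 Gy at day 7 the 4 lower genes were Ehf (-0.69, edgeR adjusted p 0.00475), Trp63 (-0.64, edgeR adjusted p 0.00256), Cebpb (-0.67, edgeR adjusted p 0.00892) and Barx2 (-0.59, edgeR adjusted p 0.0126). The Cebpb call was lost without the 0 Gy library mTG14 (adjusted p 0.0781) or the 7 Gy library mTG11 (adjusted p 0.0614), and that of Barx2 without the 7 Gy library mTG11 (adjusted p 0.0808) or mTG12 (adjusted p 0.0854). Barx2 was called with 7 Gy at day 11 with culture as a block (0.49, adjusted p 0.0168) but not otherwise.

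Of 16 genes for the lipid barrier, 10 were lower and 0 higher from day 7 to day 11 (median -1.13, beside 0.00 for all genes). Elovl1 fell by 1.03 from day 5 to day 11 (edgeR adjusted p 3e-08). Alox12b was lower with 7 Gy at day 7 (-2.09, edgeR adjusted p 0.00661), but was not called without the 0 Gy library mTG14 (-1.66, adjusted p 0.0643) or the 7 Gy library mTG11 (-1.80, adjusted p 0.0502).

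Among 18 tested of 20 proteases and protease inhibitors, 4 were higher and 12 lower from day 5 to day 11 (median -3.14, beside 0.05 for all genes), and with 7 Gy at day 11 5 were higher and 0 lower (0.76, beside 0.04). Spink5 fell by 3.58 (edgeR adjusted p 1.83e-12) and Klk10 by 4.83 (edgeR adjusted p 1.16e-10) from day 5 to day 11. At day 11 both were higher with 7 Gy, Spink5 by 0.86 (edgeR adjusted p 0.00895) and Klk10 by 1.88 (edgeR adjusted p 0.00311). Spink5 was not called there without the 0 Gy library mTG11 (0.77, adjusted p 0.0655) or the 7 Gy library mTG12 (0.62, adjusted p 0.115). Serpinb2 was higher with 7 Gy at day 7 (1.06, edgeR adjusted p 0.00102), and Asprv1, which processes profilaggrin, had 7 Gy responses that differed between the days (5.82, edgeR adjusted p 0.000128).

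In the S100 and other genes of the complex outside the members, 16 of 21 were tested, and 3 were higher and 4 lower from day 5 to day 7 (median 0.23, beside 0.00). With 7 Gy 3 were higher and 0 lower at day 7 (0.08, beside 0), and 4 higher and 0 lower at day 11 (0.60, beside 0.04). S100a9 fell by 5.95 from day 5 to day 11 (edgeR) and was higher with 7 Gy at day 11 (2.09, edgeR adjusted p 0.0234), the latter lost without the 0 Gy library mTG11 (1.69, adjusted p 0.147) or mTG14 (2.11, adjusted p 0.0783) or the 7 Gy library mTG12 (1.22, adjusted p 0.291). S100a4 rose by 1.46 with 7 Gy at day 11 (edgeR adjusted p 8.82e-06).

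Of 31 tested of 32 further partners, among them desmosome, claudin and 14-3-3 genes, 3 were higher and 24 lower from day 7 to day 11 (median -1.27, beside 0.00), and 3 higher and 0 lower with 7 Gy at day 11 (0.43, beside 0.04). Sfn fell by 1.78 from day 5 to day 11 (edgeR adjusted p 3.44e-11), and Dsp fell from day 7 to day 11 (edgeR adjusted p 8.82e-06). Dsp was higher with 7 Gy at day 11 (0.91, edgeR adjusted p 0.0154), a call lost without the 0 Gy library mTG11 (adjusted p 0.108) or mTG14 (adjusted p 0.0567) or the 7 Gy library mTG12 (adjusted p 0.103) or mTG14 (adjusted p 0.0527). Ly6g6c was higher at day 11 with 7 Gy (1.97, edgeR adjusted p 0.000278).

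Markers of cell types moved in the same comparisons. From day 7 to day 11, 5 of the 7 basal squamous markers and 5 of the 6 suprabasal mucosal markers were lower and 0 of either were higher. The basal sum had a mean of 11819 CPM at day 7 and 5861 at day 11 (top gene Krt5), and the suprabasal mucosal sum 12897.5 and 5769 (top gene Krt13). All 6 multiciliated markers were higher (mean sum 7.93 and 57.5 CPM, top gene Foxj1), as were 3 of the 10 tested thyroid follicular markers (50.6 and 257 CPM). In the same step 2 C cell, 1 fibroblast and 1 secretory marker were lower, and 2 general epithelial and 1 immune marker were higher. The median of the 4 tested immune markers was -1.61, although the immune sum went from 19.3 to 44.9 CPM. After 7 Gy at day 11, 2 suprabasal mucosal markers were higher and 2 multiciliated markers lower. The suprabasal mucosal sum was 5769 CPM without and 7496 CPM with 7 Gy. The multiciliated sum was 57.5 CPM without irradiation and 22.0, 14.9 and 16.9 CPM with 2, 4 and 7 Gy. The thyroid follicular sum was 257 CPM without and 170 CPM with 7 Gy, with 0 markers called. The 6 skeletal muscle markers (top gene Mylpf) had mean sums of 331, 93.8 and 17.8 CPM at days 5, 7 and 11, with 4 lower from day 5 to day 7, 5 lower from day 7 to day 11, and 1 higher with 7 Gy at day 11 (58.4 CPM). From day 5 to day 7, 1 suprabasal mucosal marker was higher and 3 were lower, while 5 general epithelial (top gene Epcam), 2 thyroid follicular, 1 basal squamous, 1 immune (top gene Cd68) and 1 C cell marker (top gene Calcb) were higher. The median of the 5 C cell markers was -0.35, although the C cell sum went from 9.53 to 27.8 CPM. The basal squamous sum went down from 15900 to 11819 CPM and the thyroid follicular sum from 61.0 to 50.6 CPM. The suprabasal epidermal markers (top gene Krt10) had mean sums of 47.1, 21.6 and 9.08 CPM at days 5, 7 and 11, with 1 of the 3 tested lower at each step. With 7 Gy at day 7, 1 marker each of basal squamous, suprabasal mucosal and fibroblast cells was lower, and 1 each of general epithelium and C cells was higher, the C cell sum being 27.8 CPM without and 86.0 CPM with 7 Gy. The list medians there were 0.26 for basal squamous, 0.22 for suprabasal mucosal and 0.18 for fibroblast markers, beside 0 for all genes. The basal squamous sum was 11819 CPM without and 13820 CPM with 7 Gy. The suprabasal mucosal sum was 12897.5 and 14869 CPM, and the fibroblast sum 144 and 119 CPM. At day 11 the C cell sum was 4.70 CPM without and 13.9 CPM with 7 Gy, with 1 marker higher. The part of these markers in the result was not tested.

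Outside the members, the genes that followed the members' mean profile most closely over the 27 libraries included Lypd3 (Pearson r 0.966), Gm3571 (0.965), Msmo1 (0.963) and Fdps (0.962), out of 9507 candidates. Genes of the lists were not removed from these candidates, and Klk10 (0.961) ranked among the most alike. Lypd3 is a squamous cell surface gene, and Msmo1 and Fdps act in sterol synthesis. Ghitm ran most opposite (r -0.952), ahead of Zrsr1 (-0.925) and the thyroid oxidase gene Duox2 (-0.924). Within the members, Rptn and Lor had r 0.982, Ivl and Sprr2a1 0.911, and Krtdap and Crnn -0.406 (n = 27 each). These are descriptions of the same libraries as the tests, with day as their main axis.

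By position, 44 of the 51 members lie at chr3:91987578-93356384 (GRCm39), a stretch of 1368807 bases holding 56 protein-coding genes. Within it, neighbours differed in their response to 7 Gy. Ivl and Sprr2a1 were higher at day 7 while Lor, Rptn, Flg, Crnn and most Lce3 genes were lower.

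**Figure D4:**
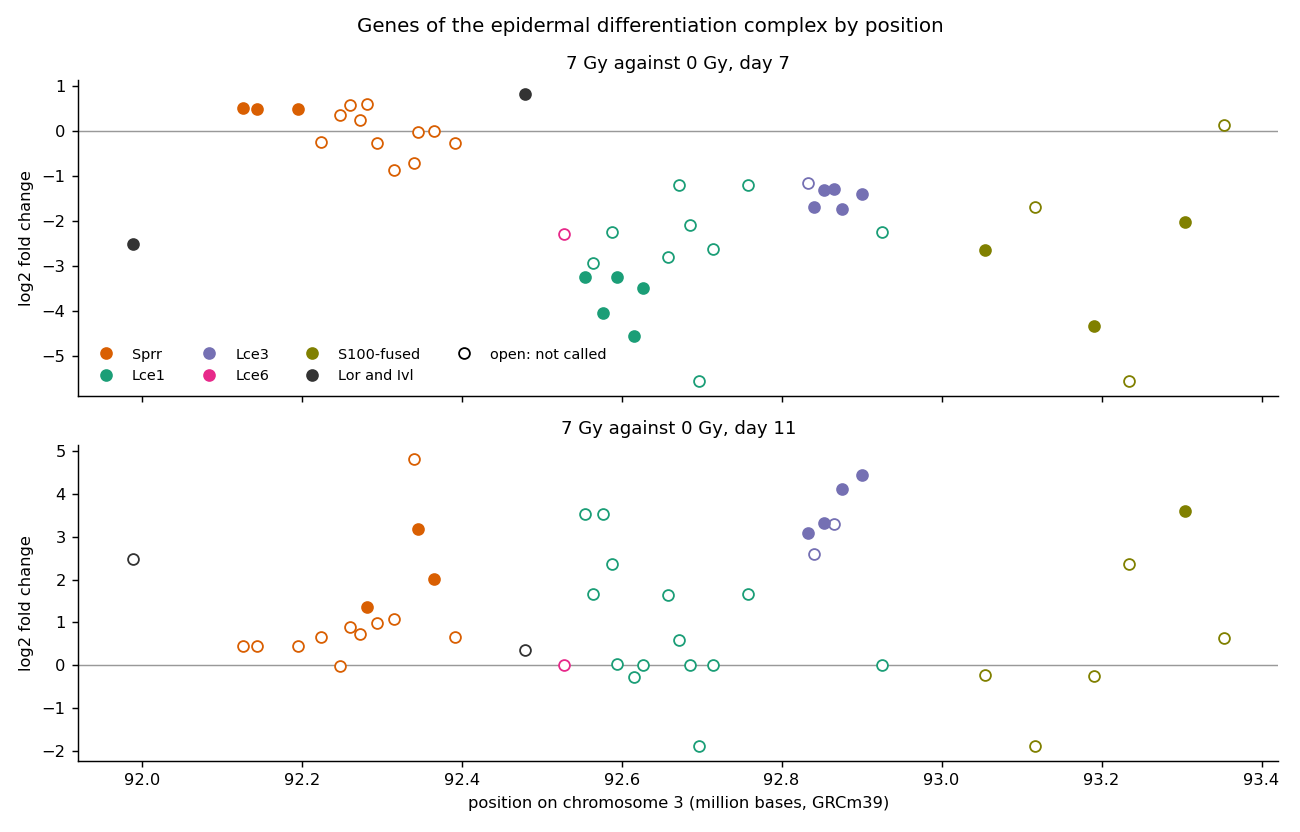
Log2 fold change with 7 Gy against position on chromosome 3 in Mb (GRCm39), in separate panels for day 7 and day 11, with points for genes coloured by family, filled where the edgeR adjusted p was under 0.05 and open otherwise. At day 7 Lor (-2.51) and Rptn (-2.02) lay low and Ivl (0.82) high, and at day 11 the filled points, such as Lce3f (4.43) and Sprr3 (2.02), lay above 0.

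Sequences from 250 bases before to 50 bases after the RefSeq start of each gene (table for GRCm38.p6, placed on GRCm39 by exact match) were searched on both strands for the AP-1 site TGANTCA, the GRHL site AACCNGTT, the C/EBP site TTGCNNAA and the TATA box TATAAA. A match describes the sequence and says nothing about binding. AP-1 sites were found for 17 of 47 matched members (36.2%), 9 of 14 Sprr genes, 0 of 20 Lce genes and 8 of 13 others, beside 7.81% of 32851 promoters. TATA boxes were found for 22 of 47 (46.8%, beside 13.6%), C/EBP sites for 8 (17.0%, beside 10.8%) and a GRHL site for 1 (2.13%, beside 2.09%). No window was matched for Evpl, Ppl, Lce1f or Sprr2g. In Sprr2d the AP-1 site began at -193 from the start and the TATA box at -29. Sprr1b had an AP-1 site at -111, Ivl at -116, Lor at -48, Rptn at -96 and Krtdap at -81. The 250 bases before the start are given in lower case with AP-1 and TATA letters in capitals, for Sprr2d (chr3:92246197-92246446, plus strand), Sprr1b (chr3:92346087-92346336, minus strand), Ivl (chr3:92481043-92481292, minus strand), Lor (chr3:91990450-91990699, minus strand), Rptn (chr3:93300756-93301005, plus strand), Krtdap (chr7:30487080-30487329, plus strand) and Lce3f (chr3:92899274-92899523, plus strand), the last without either match.
Sprr2d: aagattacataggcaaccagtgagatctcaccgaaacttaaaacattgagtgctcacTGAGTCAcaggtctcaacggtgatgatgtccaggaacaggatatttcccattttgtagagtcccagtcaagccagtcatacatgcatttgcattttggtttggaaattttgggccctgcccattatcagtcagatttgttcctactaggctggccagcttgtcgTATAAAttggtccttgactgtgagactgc
Sprr1b: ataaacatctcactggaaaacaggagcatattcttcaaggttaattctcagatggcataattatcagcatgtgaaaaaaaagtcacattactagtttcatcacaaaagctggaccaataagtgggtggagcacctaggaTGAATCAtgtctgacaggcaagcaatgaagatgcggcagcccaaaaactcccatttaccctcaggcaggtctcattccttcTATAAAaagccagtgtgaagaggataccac
Ivl: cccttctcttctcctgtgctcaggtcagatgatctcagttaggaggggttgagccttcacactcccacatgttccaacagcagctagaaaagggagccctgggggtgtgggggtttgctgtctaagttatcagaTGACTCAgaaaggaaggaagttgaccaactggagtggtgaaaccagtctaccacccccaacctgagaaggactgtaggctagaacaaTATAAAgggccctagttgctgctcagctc
Lor: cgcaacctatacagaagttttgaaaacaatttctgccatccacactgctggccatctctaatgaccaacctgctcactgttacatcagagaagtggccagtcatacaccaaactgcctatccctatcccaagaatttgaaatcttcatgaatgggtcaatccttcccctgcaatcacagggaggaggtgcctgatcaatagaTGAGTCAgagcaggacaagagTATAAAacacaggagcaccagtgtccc
Rptn: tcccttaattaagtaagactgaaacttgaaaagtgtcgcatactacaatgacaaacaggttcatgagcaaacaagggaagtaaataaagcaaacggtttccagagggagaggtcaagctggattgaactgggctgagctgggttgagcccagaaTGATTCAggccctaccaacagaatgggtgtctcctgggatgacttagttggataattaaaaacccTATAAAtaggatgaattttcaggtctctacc
Krtdap: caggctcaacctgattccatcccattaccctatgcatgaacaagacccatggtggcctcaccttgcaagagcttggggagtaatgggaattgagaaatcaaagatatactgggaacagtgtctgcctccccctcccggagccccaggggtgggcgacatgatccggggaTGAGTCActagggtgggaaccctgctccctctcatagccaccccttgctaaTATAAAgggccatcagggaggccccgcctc
Lce3f: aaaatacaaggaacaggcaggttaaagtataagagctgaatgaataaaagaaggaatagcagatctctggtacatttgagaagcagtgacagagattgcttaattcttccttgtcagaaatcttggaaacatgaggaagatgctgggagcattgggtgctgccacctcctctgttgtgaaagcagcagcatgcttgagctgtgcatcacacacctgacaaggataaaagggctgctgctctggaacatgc

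The sample labels number 3 mice, and the series overview gives a different number. The results rest on 3' ends alone, so transcript forms were not seen, and protein cross-linking, which makes the envelope, was not measured. The counts of members called after 4 and 7 Gy moved with single libraries, irradiated or not. Levels near 0 at day 11 make the fold changes of Lor, Rptn and the Lce genes there imprecise. Sprr2a1 and Sprr2a2 could not be told apart by their ends, Sprr2a3 only in part, Sbsn shared 47.1% of its end words with Tmem147os, and Lce3d shared 35.8%, Lce1b 16.4% and Lce3c 13.6% with other Lce genes. Cell composition was read from marker genes of these same libraries.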

How the data were processed

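The table deposited by the authors held estimated counts for 50559 genes in 27 libraries, 56.3% of its nonzero values being whole, where the design fixed beforehand had assumed plain counts. The values were rounded and every gene with at least 10 counts over all libraries was tested (22220). One quasi-likelihood fit of the 9 groups was made in edgeR 4.0.16 with TMM factors under R 4.3.3, p values were adjusted by Benjamini-Hochberg over all tested genes, and 0.05 was the limit for a call. DESeq2 1.42.0 was the other tool. Tables and figures used Python 3.11.15, numpy 2.4.6, pandas 2.3.3 and matplotlib 3.10.9. STAR, edgeR and GRCm39 are named in the submitters' processing notes without versions. No column of the table was left unused (0).

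The members were chosen by the name rule given in the report, and the gene lists by function, both with earlier results of these data known. A gene outside the members was named only if it was in a list or ranked at the top of the likeness table. Folds against a group without counts divided by 3 counts over the summed totals of that group's libraries (0.259 CPM in the unirradiated day 11 group) and are lower bounds. These bounds and the standard errors cover counting and replicate spread, not errors of read assignment.

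The fit was tested on simulated data in which 200 of 21754 genes were changed between 7 Gy and 0 Gy at day 7. There edgeR found 77% of genes changed by 1 on the log2 scale and 95% of those changed by 2. Its false calls were 4.97%, and DESeq2 gave 77%, 95% and 5.49%. These rates were not split by expression level or by culture, and recovery at day 11 was not simulated. They therefore cannot be carried over to members near 0 at day 11, such as Lor, Rptn, Sprr1b and the Lce genes.

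Culture names (mTG11, mTG12, mTG14) stand in the column names, whereas the sample labels name mouse 1 to 3, and the files do not link the 2 sets. Libraries of the same culture in different groups had a mean residual correlation of 0.269 (107 of 108 pairs over 0.1), those of different cultures -0.134 (216 pairs), over 13158 genes. Culture was therefore also fitted as a block.

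Alternatives tried were DESeq2, RLE factors, no TMM factors, filterByExpr, no filter, only the stage compared, culture as a block, and each library left out. The fits with a library left out had no culture block and fewer libraries, so they also called fewer genes in most comparisons. Chosen after seeing the data were culture as a block within the stage compared, the table without Sprr2a1 to Sprr2a3, shares with each library left out, and shares of TMM-scaled totals.

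Promoters were the 250 bases before the RefSeq start and were searched for the 4 motifs together with 50 bases after it. No protein sequences were on hand. With 3 libraries per group, small changes go unseen, and the standard errors rest on few values. Groups with counts of 1-3 were given no lower bound. Lce3f lay at about the floor of 0.259 CPM in the unirradiated day 11 group, so its edgeR fold changes against that group are imprecise fitted values.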

Additional observations from a re-analysis of the deposited data

Results flagged for a closer look

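Each value here was flagged because a test found the effect of 7 Gy to be unequal at the 2 days (log2 fold change at day 11 minus that at day 7, edgeR). The difference was 3.24 for Krtdap, 2.31 for Cnfn, 5.61 for Rptn and 4.08 for Flg. For the late cornified envelope genes it was 5.83 for Lce3f, 5.84 for Lce3e, 4.59 for Lce3d, 4.63 for Lce3c, 4.28 for Lce3b and 4.24 for Lce3a. The Lce3f value is imprecise, because its day 11 controls lay at about the floor of 0.259 CPM. Lce1a1 stood at 6.75, a value that rests on groups with 0 counts and on 1 library. It was 0.94 for Sprr1a, whose call was lost in 10 of 12 fits with a library left out, and 4.99 for Lor. For the sums it was 3.96 for the 14 Lce1 genes and 4.83 for the 6 Lce3 genes.

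Without the 7 Gy day 11 library mTG12 the calls of Lor (3.67), Flg (3.57), Lce3b (2.91), Lce3c (3.35), Lce3e (4.08), Lce3f (4.22), Sprr1a (0.85), Lce1a1 and the Lce1 sum (3.45) were lost, while those of Krtdap, Cnfn, Rptn, Lce3d, Lce3a and the Lce3 sum were kept. The Flg and Lce3b calls were each lost in 5 fits with a library left out, that of Lce1a1 in 6. The cause of that library's higher values was not tested.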

How the results depend on the processing

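No result changed sign while called under any alternative. RLE factors, filterByExpr and the table without Sprr2a1 to Sprr2a3 left nearly every member on its side of the limit. With the replicate block (culture), members called were 23 (10 higher) from day 5 to day 7, 39 (1 higher) from day 7 to day 11, 44 (9 higher) from day 5 to day 11 and 22 with 7 Gy at day 7. Of all 22220 genes, the block called 4692, 4741, 8306 and 2260 in these comparisons, where 3926, 3923, 7716 and 1510 were called without it. Beside the values printed with results, the block changed no other call of a member for which a value is given in the report. Depth limits the Lce, Lor and Rptn results at day 11, where few counts were left. For each changed value below, the cause was not tested.

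Members called without a filter were 30 (day 7 against day 5), 13, 21 and 29 (2, 4 and 7 Gy, day 7), 3, 15 and 26 (2, 4 and 7 Gy, day 11) and 25 (difference between the 7 Gy responses). With the replicate block they were 1 and 9 (2 and 4 Gy, day 7), 2 and 17 (4 and 7 Gy, day 11) and 20 (difference). With the block and only the stage compared they were 30 (day 7 against day 5), 1 and 15 (2 and 4 Gy, day 7) and 4 and 17 (4 and 7 Gy, day 11). DESeq2 gave 5 (4 Gy, day 7), 1 and 16 (4 and 7 Gy, day 11), filterByExpr 5 (4 Gy, day 7) and only the stage compared 5 (7 Gy, day 11). In place of 50, filterByExpr tested 45 members. With only the stage compared, 34 members were tested for the doses at day 11 and 49 in the other comparisons.

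Genes called without a filter were 366 and 1136 (2 and 4 Gy, day 7), 229, 449 and 1256 (2, 4 and 7 Gy, day 11) and 1251 (difference). With the block they were 104, 931, 78, 193, 1236 and 1153 in that order, and with the block and only the stage compared 139, 1009, 72, 238, 1296 and 1151. DESeq2 gave 52 (2 Gy, day 7), 1 and 52 (2 and 4 Gy, day 11), and only the stage compared 1 and 302 (4 and 7 Gy, day 11).

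Sums that gained a call were, without a filter, Sprr1 (0.38, 4 Gy day 11; 0.93, difference), Sprr2 (0.32, 4 Gy day 7; 0.46, 7 Gy day 11), Sprr2a (0.32; 0.46, the same), Lce1 (-1.71, 2 Gy day 7) and Lce3 (-0.47 and -0.84, 2 and 4 Gy day 7; 1.71, 4 Gy day 11). With the block they were Sprr1 (0.92, difference), Sprr2 and Sprr2a (0.46 each, 7 Gy day 11) and Lce1 (-1.59, 2 Gy day 7), with DESeq2 Sprr1 (0.91, difference), Sprr2 and Sprr2a (0.44 each, 7 Gy day 11), and with filterByExpr Sprr1 (0.92, difference). Sums that lost a call were Sprr1 (0.67 with RLE factors and 0.65 with only the stage compared, 7 Gy day 11), Sprr2 and Sprr2a (0.33 each without TMM factors, day 11 against day 5), Lce1 (-1.91 with only the stage compared, 4 Gy day 7) and Lce3 (-1.39 with DESeq2, 7 Gy day 7). The members' share at day 5 was 1.88% of TMM-scaled totals.

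With each library left out, members called ran 15-21 (day 7 against day 5), 30-37 (day 11 against day 7), 41-44 (day 11 against day 5), 0-0, 0-8 and 10-19 (2, 4 and 7 Gy, day 7), 0-0, 0-0 and 2-10 (day 11), 5-15 (difference) and 46-48 (any). Genes called ran 3033-3256, 2945-3377, 6590-6937, 9-22, 144-318, 914-1212, 0-0, 0-9, 301-368, 495-648 and 8086-8942 in the same order. Sums ran in that order, without the last, as follows. Lce1: -2.53 to -1.29, -5.32 to -3.73, -7.03 to -5.87, -2.15 to -0.90, -2.34 to -1.09, -3.53 to -2.29, 0.11 to 1.23, -0.95 to 0.17, 0.35 to 1.63, 3.14 to 4.73. Lce3: -0.20 to 0.18, -7.19 to -6.75, -7.21 to -6.76, -0.68 to -0.30, -1.14 to -0.65, -1.67 to -1.04, -0.52 to 0.22, 1.25 to 1.98, 2.16 to 3.85, 3.56 to 5.26. Sprr1: -1.03 to -0.65, -1.24 to -0.85, -1.98 to -1.75, -0.43 to -0.04, -0.32 to 0.07, -0.47 to -0.09, -0.37 to -0.11, 0.26 to 0.53, 0.55 to 0.78, 0.77 to 1.16. Sprr2: 1.20 to 1.33, -0.87 to -0.74, 0.41 to 0.52, 0.04 to 0.23, 0.26 to 0.39, 0.42 to 0.56, -0.28 to -0.06, 0.16 to 0.40, 0.36 to 0.54, -0.13 to 0.05. Sprr2a: 1.21 to 1.34, -0.88 to -0.75, 0.43 to 0.53, 0.04 to 0.23, 0.26 to 0.38, 0.43 to 0.56, -0.29 to -0.06, 0.15 to 0.39, 0.36 to 0.54, -0.14 to 0.05. Shares of all members ran, as percent, 1.96-2.08 (day 5), 3.14-3.43, 3.40-3.81, 3.96-4.16 and 4.20-4.53 (0, 2, 4 and 7 Gy, day 7) and 1.75-1.82, 1.51-1.74, 2.02-2.39 and 2.35-2.72 (day 11).

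Single-gene results of the members, called or not, stayed on the same side of the limit in 379 cases with DESeq2 (14 gained a call, 6 lost it), 496 with RLE factors (2, 2), 490 without TMM factors (3, 7), 439 with filterByExpr (11, 0), 391 without a filter (109, 0), 426 with only the stage compared (7, 12), 465 with the block (35, 0), 392 with the block and only the stage compared (52, 1) and 465 without Sprr2a1 to Sprr2a3 (2, 3). The totals differ between these settings, because results of members not tested there or without an adjusted p were left out, so the numbers of cases are not comparable. With a library left out, 6351 results of members and named list genes together stayed on their side, 55 gained a call and 326 lost it. Counts of called genes in the function lists moved by over 1.5 times, or to or from 0, in 76 cases with a library left out (320 did not) and in 97 under the other settings (443 did not).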
